A study of Mus musculus with 11 samples.

Results

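Polycomb repressive complex 2 (PRC2) is the enzyme complex that methylates lysine 27 of histone H3 (H3K27), and 10 genes for its subunits were followed here, chosen by name from the 47517 gene names of a count table. They are the catalytic subunits Ezh2 and Ezh1, the core subunits Eed, Suz12 and Rbbp4, and the accessory subunits Mtf2, Phf1, Phf19, Jarid2 and Aebp2. All 10 were in the table and all 10 had enough reads to be tested, among 15821 genes tested. RNA was sequenced from forelimb buds of C57BL/6 mouse embryos at stage E10.5 of gestation. Mutant embryos had the genotype Gmnn f/f; Prx-Cre, in which both copies of the gene for Geminin, an inhibitor of replication licensing, carry loxP sites. Control embryos had the genotype Gmnn +/f; Prx-Cre, so that they shared the Cre transgene and had 1 floxed copy. The Prx-Cre transgene acts in limb mesenchyme, and the ectoderm, blood and vessels of the bud keep intact alleles. The titles assigned 5 control and 6 mutant libraries to 4 litters, named A to D here. Controls 1 and 2 and mutants 1 and 2 came from litter A, control 3 and mutant 6 from litter B, control 4 and mutant 5 from litter C, and control 5 and mutants 3 and 4 from litter D. The labels do not say whether buds of several embryos were pooled. The p-values therefore rest on the spread between these libraries that is left once litter and genotype are accounted for.

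PRC2 places methyl groups on H3K27 at genes that are to stay silent, and it is best known in the limb for keeping Hox genes closed outside their domains. Ezh2 or Ezh1 supplies the catalytic SET domain, and Eed, Suz12 and the histone-binding protein Rbbp4 hold the core together. The accessory subunits define separate forms of the complex: the Polycomb-like proteins Mtf2, Phf1 and Phf19 belong to PRC2.1, and Jarid2 and Aebp2 belong to PRC2.2. Ezh2 is the form that predominates in dividing embryonic cells, and Ezh1 is known for its expression in resting and adult cells.

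Library totals ran from 14721181 to 19733288 reads. Gmnn, the gene that carries the loxP sites, was at 139.3 to 238.9 CPM (reads scaled to a common library total) in controls and at 99.5 to 137.7 CPM in mutants, so that the groups did not overlap. Its log2 fold change was -0.67 (SE 0.10, adjusted p 0.0291 in edgeR's quasi-likelihood test, which had litter as a block), and that call was lost in 13 of 25 alternative settings. Markers of limb mesenchyme were present in every library, with a summed level of 486 to 644 CPM over 7 genes in controls and 521 to 599 CPM in mutants. The sum hides differences in both directions. Of the 7 genes 0 passed in edgeR, where 2.18% of all genes tested passed. At an unadjusted p under 0.05, 3 were higher and 1 lower, beside 9.84% and 11.5% of all genes tested. Markers of other cell types differed more between libraries. The 9 red blood cell genes summed to 13112 to 33657 CPM in controls and 16430 to 57370 CPM in mutants, the 7 macrophage genes to 4.48 to 35.9 and 13.1 to 52.6 CPM, and the 6 muscle genes to 40.3 to 94.0 and 32.9 to 69.4 CPM, among which Acta1 (-3.78, adjusted p 0.0353) and Myl1 (-2.66, adjusted p 0.0452) fell on the log2 scale in edgeR. These calls were lost in 14 of 22 alternative settings for Acta1 and in 18 of 23 for Myl1. Both had low levels and overlapping ranges. Acta1 was at 0.523 to 26.1 CPM (median 1.49) in controls and 0.178 to 0.537 CPM in mutants. Its log2 difference was -2.26, -0.86, -0.71 and -5.88 in litters A to D. Myl1 was at 0.407 to 5.47 CPM in controls and 0.058 to 0.654 CPM in mutants. Of the same list, Myf5 (-1.25, adjusted p 0.1295), Myod1 (-2.10, adjusted p 0.189) and Myog (-1.76, adjusted p 0.117) were also lower in edgeR, short of the threshold. Pax3 was at 0.30 (adjusted p 0.307). At an unadjusted p under 0.05, 5 of the 6 were lower, beside 11.5% of all genes tested. All 9 red blood cell and all 7 macrophage estimates were above 0, where the median over all genes tested was 0.0038. None of them passed, where 2.18% of all genes tested passed. At an unadjusted p under 0.05 in edgeR, 2 of the 9 and 3 of the 7 were higher, beside 9.84% of all genes tested. The 5 endothelial genes summed to 78.7 to 122.4 CPM in controls and 63.6 to 112.5 CPM in mutants, the 4 neural crest genes to 7.89 to 14.4 and 5.95 to 11.2 CPM, and the 6 surface ectoderm genes to 140.1 to 273.5 and 149.6 to 272.0 CPM. Among all these markers 0 had no read at all. The part of these cell types in the values below was not tested. In whole buds, fewer cells of a type and less RNA per cell cannot be told apart.

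None of the PRC2 transcripts was called higher or lower in Gmnn mutant forelimb buds. Of the 10 genes, 0 passed an adjusted p of 0.05 in that test, where 2.18% of all genes tested passed (0.702% higher and 1.48% lower in mutants). DESeq2, which gave no adjusted p for Phf19, and limma-voom also called 0. At an unadjusted p under 0.05 there were 2, Ezh1 and Rbbp4, both lower in mutants, beside 21.4% of all genes tested (11.5% lower, 9.84% higher). Without control 4 or without mutant 5, the pair of litter C, that count was 0. The median log2 fold change was 0.042 over the 10 genes and 0.0038 over all genes tested, with 6 estimates above 0 and 4 below. For 5 of the genes (Ezh2, Eed, Suz12, Rbbp4 and Mtf2) the 95% interval of the difference lay within 1.25-fold in either direction.

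**Figure D1:**
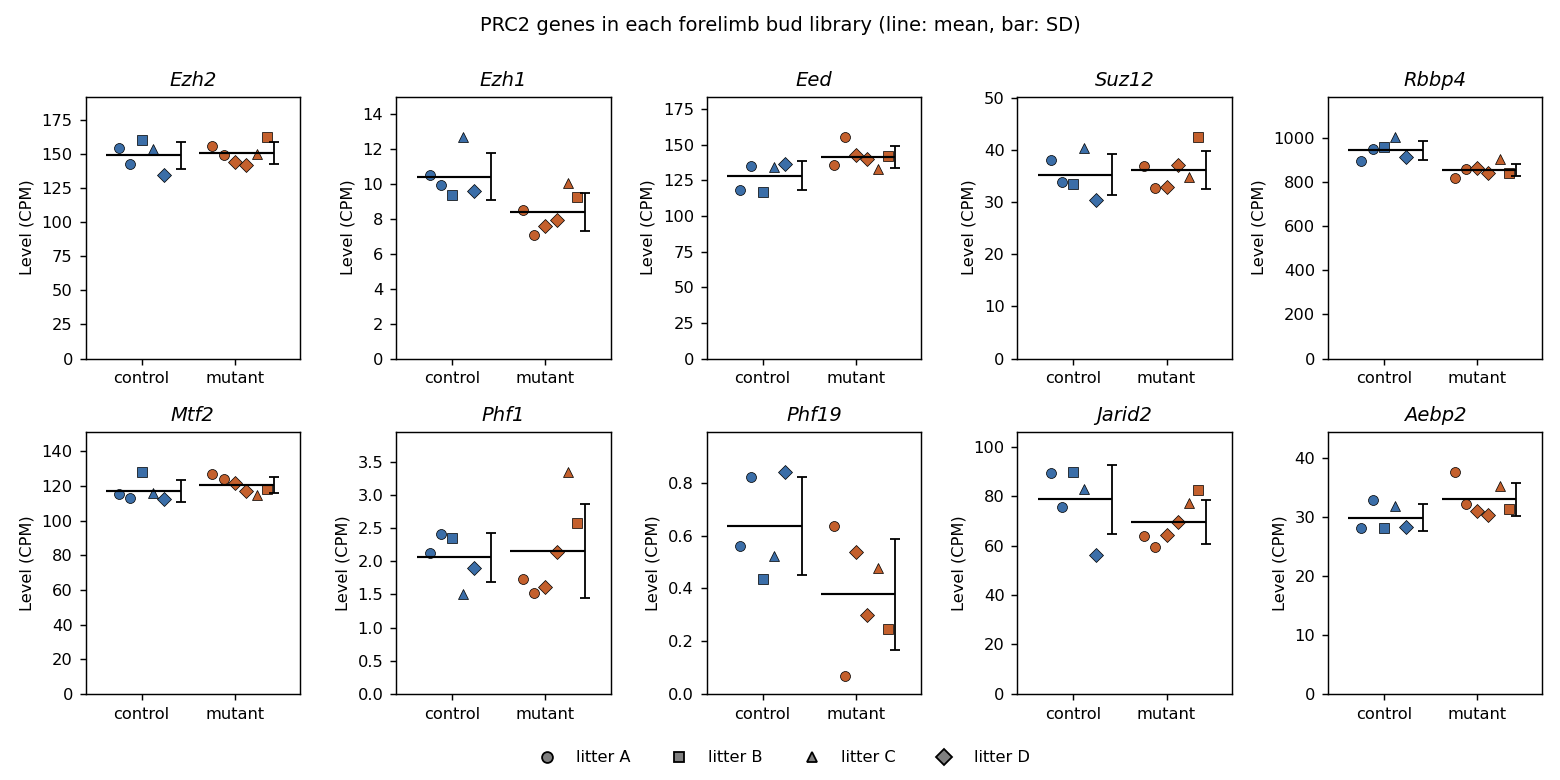
Level of each PRC2 gene in CPM (vertical axis from 0) in the 5 control and 6 mutant libraries, with the litter given by the symbol, the mean as a line and the SD as a bar. The groups overlap in all 10 panels, and the Ezh1 and Rbbp4 panels come nearest to a separation.

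The promoters of 3 core genes are shown first, because Ezh2 and Ezh1 encode alternative catalytic subunits with very unequal RNA levels, and because Ezh2 and Suz12 carry the letters of an E2F motif. E2F factors switch on genes of the cell cycle, and Ezh2 is a textbook E2F target. Each sequence is RefSeq's, in GRCm38.p6, and holds the 250 bases before and the 50 bases after the annotated start, written 5′ to 3′ on the gene's strand. The windows are chr6:47594981-47595280 (minus strand) for Ezh2, chr11:79992856-79993155 (plus strand) for Suz12 and chr11:101226414-101226713 (minus strand) for Ezh1. Capitals mark a match to TTTGGCGC or TTTCCCGC, searched on both strands.
Ezh2: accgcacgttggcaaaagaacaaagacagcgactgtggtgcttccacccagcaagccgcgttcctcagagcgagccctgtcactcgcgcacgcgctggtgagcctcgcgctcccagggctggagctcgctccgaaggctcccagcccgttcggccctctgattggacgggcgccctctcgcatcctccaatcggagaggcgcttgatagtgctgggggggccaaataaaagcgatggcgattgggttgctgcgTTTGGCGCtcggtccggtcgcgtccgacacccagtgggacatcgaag
Suz12: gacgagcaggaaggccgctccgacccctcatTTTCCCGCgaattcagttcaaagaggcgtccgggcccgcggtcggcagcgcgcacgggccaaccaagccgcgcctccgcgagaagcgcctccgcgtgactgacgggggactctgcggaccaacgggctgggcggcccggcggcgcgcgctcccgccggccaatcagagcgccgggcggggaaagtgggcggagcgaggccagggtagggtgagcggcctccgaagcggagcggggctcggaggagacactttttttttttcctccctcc
Ezh1: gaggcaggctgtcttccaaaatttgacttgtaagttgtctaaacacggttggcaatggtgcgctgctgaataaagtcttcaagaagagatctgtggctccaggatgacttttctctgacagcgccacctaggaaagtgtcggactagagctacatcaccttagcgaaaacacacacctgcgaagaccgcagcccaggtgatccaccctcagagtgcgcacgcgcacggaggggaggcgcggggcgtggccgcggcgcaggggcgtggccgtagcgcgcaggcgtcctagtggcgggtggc
TTTGGCGC began at base 4 of the Ezh2 transcript and TTTCCCGC began 219 bases before the Suz12 start, and neither was in the Ezh1 window. Of 32851 such windows over the genome, 0.514% held the former and 1.07% the latter. Among the 14 windows of the 10 PRC2 genes, the window of Phf19 was the other with a match, to TTTCCCGC on the opposite strand, 208 bases before the start. CG pairs numbered 31 in the Ezh2 window, 41 in that of Suz12 and 23 in that of Ezh1, where the median over all windows was 7. These matches describe letters only, and binding was not measured.

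Ezh2, the main H3K27 methyltransferase of embryonic cells, lies on chromosome 6 (47530139 to 47595341, mm10). It stood at 154, 143, 160.1, 153 and 135 CPM in controls 1 to 5, and at 142 to 163 CPM with a median of 149.8 in the 6 mutants. Control 5 was the lowest of all 11 libraries and mutant 6 the highest, and the ranges lay on top of each other. Controls averaged 149 ± 10.2 CPM (SD, n = 5) and mutants 151 ± 7.84 CPM (SD, n = 6). Mutants differed by 0.035 on the log2 scale (SE 0.057, adjusted p 0.773 by edgeR), and the 95% interval ran from a change of -6.00% to one of 11.7%. By litter the log2 difference was 0.042, 0.025, -0.029 and 0.083 in A to D. The coefficient of variation over the 11 libraries was 5.69%, the second lowest of the 10 genes.

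Ezh1, the alternative catalytic subunit, lies on chromosome 11 (101191115 to 101226463). Its level was 10.51, 9.94, 9.38, 12.7 and 9.60 CPM in controls 1 to 5, and ran from 7.08 to 10.04 CPM with a median of 8.24 in mutants. Of the mutants, 5 lay below every control, and mutant 5 lay above controls 2, 3 and 5. In litter C, control 4 was the highest control and mutant 5 the highest mutant. Controls averaged 10.4 ± 1.35 CPM (SD, n = 5) and mutants 8.41 ± 1.10 CPM (SD, n = 6). The log2 fold change was -0.29 (SE 0.11), with an unadjusted p of 0.0240 and an adjusted p of 0.169 in edgeR, so that it did not pass the threshold. The interval ran from -30.9% to -3.07%. Litters A to D gave log2 differences of -0.39, -0.017, -0.34 and -0.30. Between 107 and 219 reads per library stood behind these values, against 1925 to 2937 for Ezh2.

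Per kilobase of exon, Ezh2 RNA was 16.1 ± 1.99 (SD, n = 5) times as abundant as Ezh1 RNA in controls and 20.2 ± 2.22 (SD, n = 6) times in mutants. The ratio was 16.4, 16.0, 19.0, 13.4 and 15.7 in controls 1 to 5 and 16.7 to 23.5 in mutants. The ranges overlapped, since control 3 at 19.0 lay above mutant 5 at 16.7. Within litters the mutant mean ratio was higher by 5.81 in A, 0.573 in B, 3.25 in C and 4.82 in D. In the fit, Ezh2 in the numerator differed by 2.48% and Ezh1 in the denominator by -18.1%. No test was made of the ratio.

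**Figure D2:**
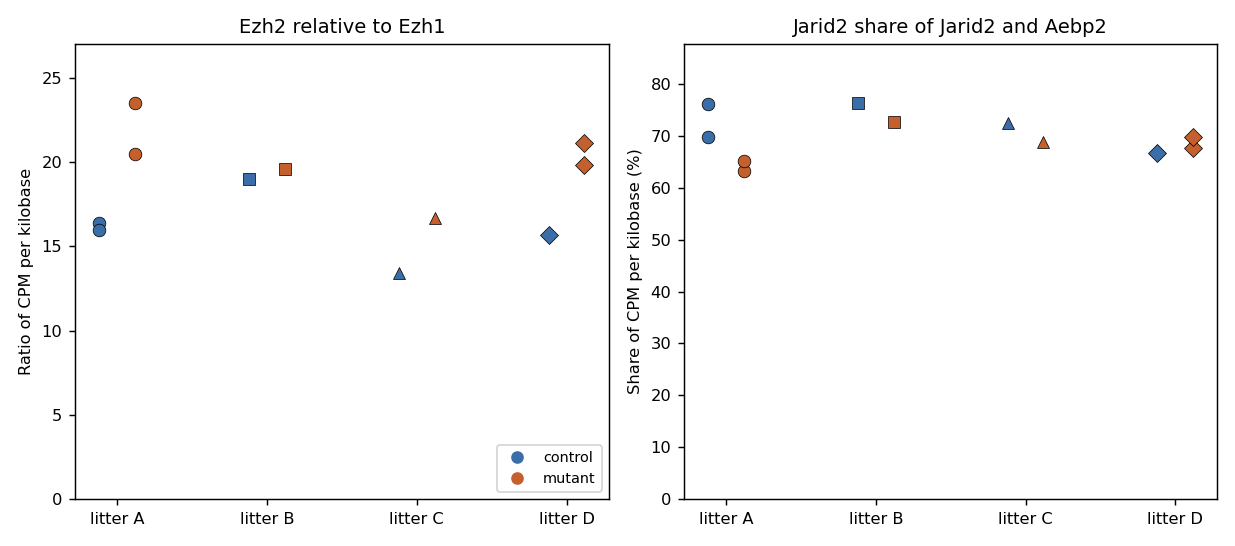
Left, the ratio of Ezh2 to Ezh1 in CPM per kilobase; right, the share of Jarid2 in the sum of Jarid2 and Aebp2 per kilobase (%). Each point is a library, placed by litter; the ratio is 13.4 to 19.0 in controls and 16.7 to 23.5 in mutants.

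Eed, which reads methylated H3K27 and stimulates the enzyme, lies on chromosome 7 (89954654 to 89980983). Controls 1 to 5 had 118, 135, 116, 134 and 137 CPM, and mutants had 133 to 156 CPM with a median of 140.9. Controls 1 and 3 lay below all the others, and mutants 2, 3, 4 and 6 lay above every control. Mutants 1 and 5 lay within the range of the controls. Controls averaged 128 ± 9.98 CPM (SD, n = 5) and mutants 141 ± 7.94 CPM (SD, n = 6). The estimate of 0.14 on the log2 scale (SE 0.071, adjusted p 0.295 by edgeR) did not pass, with an interval of -1.27% to 22.4%. The estimate in litters A to D was 0.20, 0.28, -0.018 and 0.046.

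Suz12, which anchors the catalytic lobe and the accessory subunits, lies on chromosome 11 (79993106 to 80034123). It was at 38.1, 33.9, 33.5, 40.3 and 30.5 CPM in controls 1 to 5 and at 32.7 to 42.6 CPM, median 35.9, in mutants. The genotypes covered almost the same range. The fitted log2 difference was 0.057 (SE 0.094, adjusted p 0.779 by edgeR), with an interval of -9.77% to 19.9%. Litters went different ways, with -0.050 in A, 0.34 in B, -0.21 in C and 0.20 in D on the log2 scale.

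Rbbp4, a histone-binding protein that PRC2 shares with other chromatin complexes, lies on chromosome 4 (129307100 to 129335370). Its level was 897, 949.8, 962, 1007 and 915 CPM in controls 1 to 5, and 820.3 to 905 CPM with a median of 851 in mutants. Of the mutants, 5 lay below the lowest control, and mutant 5 at 905 CPM lay above control 1. Controls averaged 946 ± 43.1 CPM (SD, n = 5) and mutants 856 ± 28.8 CPM (SD, n = 6). Its log2 fold change was -0.14 (SE 0.057), with an unadjusted p of 0.0290 and an adjusted p of 0.185 in edgeR, and the interval ran from -16.8% to -1.18%. All 4 litters gave a lower mutant mean, with log2 differences of -0.14, -0.19, -0.16 and -0.10 in A to D. Of the exon bases of Rbbp4, 18.05% also lie in Sync or Gm26722, and no strand option is in the header of the count table. Sync had 29 reads in all and Gm26722 had 40, against 163721 for Rbbp4. The share of exon bases was 2.61% for Ezh2, 3.60% for Suz12, 6.82% for Eed and 6.93% for Mtf2, and 0% for the other 5 genes. Tmed5, which overlaps Mtf2, had 12473 reads against 21660 for Mtf2. Rbbp7 is a close relative of Rbbp4 that can take its place in the complex. It averaged 283 ± 28.0 CPM (SD, n = 5) in controls and in mutants 285 ± 13.9 CPM (SD, n = 6). Its log2 fold change was -0.0047 (SE 0.06, adjusted p 0.976 by edgeR). Per kilobase, the ratio of Rbbp4 to Rbbp7 was 0.943 to 1.28 in controls and 0.939 to 1.08 in mutants.

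In the PRC2.1 group, Mtf2 carried nearly all of the RNA. This DNA-binding subunit recruits the complex to CpG islands, and its gene lies on chromosome 5 (108065674 to 108109004). Mtf2 was at 115, 113, 128, 116 and 112 CPM in controls 1 to 5, and at 115 to 127 CPM with a median of 120.2 in mutants. Control 3 stood above the other controls and above all 6 mutants, and the ranges overlapped. Its log2 fold change was 0.050 (SE 0.061, adjusted p 0.695 by edgeR), with an interval of -5.64% to 13.5%. Its coefficient of variation over all libraries, 4.61%, was the lowest of the 10 genes. Mtf2 made up 95.5 ± 0.737% (SD, n = 5) of the summed level of Mtf2, Phf1 and Phf19 per kilobase in controls and 95.6 ± 1.42% (SD, n = 6) in mutants.

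The other Polycomb-like subunits were rare. Phf1 (chromosome 17, 26933127 to 26937890) had 23 to 49 reads per library, and averaged 2.06 ± 0.369 CPM (SD, n = 5) in controls and in mutants 2.16 ± 0.703 CPM (SD, n = 6). The log2 fold change, 0.060 (SE 0.26, adjusted p 0.925 by edgeR), had an interval of -29.6% to 54.4%. In litter C the mutant was higher by 1.09 on the log2 scale, from 1.51 CPM in control 4 to 3.35 CPM in mutant 5, the highest level of all, and in litter A the difference was -0.45. Phf19 (chromosome 2, 34893757 to 34914026) had 8 to 16 reads in controls and 1 to 11 in mutants. Controls averaged 0.637 ± 0.184 CPM (SD, n = 5) and mutants 0.377 ± 0.211 CPM (SD, n = 6). The estimate, -0.78 (SE 0.48, adjusted p 0.379 by edgeR), was the farthest from 0 of the 10 genes and the least precise, with an interval of -1.83 to 0.26. Mutant 2 had a single read. Phf19 was lower in all 4 litters, with log2 differences of -1.09, -0.61, -0.10 and -0.87.

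In the PRC2.2 group, the main subunits went opposite ways and neither passed the test. Jarid2, a DNA-binding subunit that lacks the demethylase activity of its protein family, lies on chromosome 13 (44729474 to 44921643), the chromosome that also holds Gmnn. Its level was 89.3, 75.5, 89.7, 83.0 and 56.0 CPM in controls 1 to 5, and 59.5 to 82.5 CPM with a median of 66.8 in mutants. Control 5 was the lowest library of all, and the other 4 controls were above mutants 1 to 4. Controls averaged 78.7 ± 14.0 CPM (SD, n = 5) and mutants 69.4 ± 8.81 CPM (SD, n = 6). The log2 fold change was -0.14 (SE 0.10, adjusted p 0.455 by edgeR), with an interval of -22.1% to 5.58%. The difference was -0.41, -0.12 and -0.10 in litters A to C and 0.25 in litter D. Without control 5 the fold change was -0.26 (adjusted p 0.110 by edgeR), and without the whole of litter A it was 0.029.

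Aebp2, a zinc finger subunit of the same form (chromosome 6, 140622663 to 140678472), stood at 28.1, 32.9, 28.2, 31.9 and 28.2 CPM in controls 1 to 5. In mutants it ran from 30.4 to 37.6 CPM with a median of 31.8. Mutants 1 and 5 were above every control, control 2 was above the other 4 mutants, and the ranges overlapped. Controls averaged 29.9 ± 2.33 CPM (SD, n = 5) and mutants 33.0 ± 2.84 CPM (SD, n = 6). An estimate of 0.16 (SE 0.078, adjusted p 0.265 by edgeR) did not pass, with an interval of -0.763% to 25.7%. The difference was nearly equal in the 4 litters, at 0.19, 0.16, 0.14 and 0.12.

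In the makeup of this group, Jarid2 made up 72.4 ± 4.14% (SD, n = 5) of the summed Jarid2 and Aebp2 level per kilobase in controls and 67.9 ± 3.37% (SD, n = 6) in mutants. The control range was 66.8 to 76.3% and the mutant range 63.2 to 72.7%. The difference between mutants and controls was -8.90, -3.66 and -3.54 percentage points in litters A, B and C and 2.02 in litter D. The summed level of the PRC2.1 subunits was 1.96 ± 0.256 (SD, n = 5) times that of the PRC2.2 subunits in controls and 2.12 ± 0.210 (SD, n = 6) times in mutants. These shares are descriptions of RNA, without a test, and protein was not measured.

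**Figure D3:**
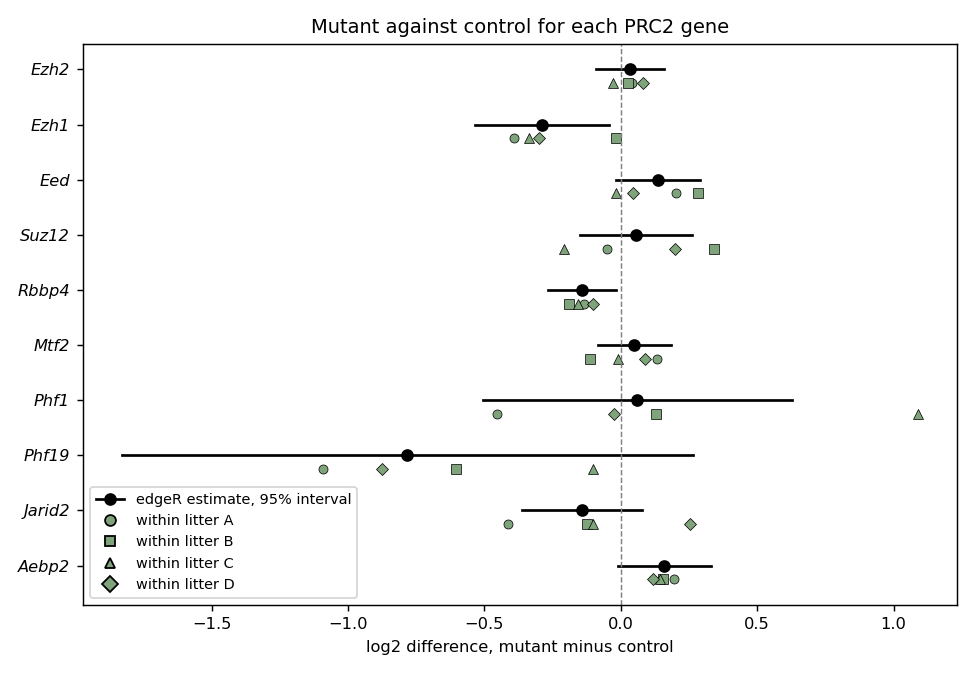
Difference between mutant and control for each PRC2 gene on the log2 scale. Black points and lines are the edgeR estimate with its 95% interval, and green symbols are the differences within litters A to D; Ezh1, Rbbp4 and Phf19 are below 0 and Aebp2 above 0 in all 4 litters.

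Direction was the same in all 4 litters for 4 of the 10 genes (Ezh1, Rbbp4 and Phf19 lower, Aebp2 higher), beside 26% of all genes tested. The mutant and control ranges were apart for 0 of the 10, where 2.59% of all genes tested were apart. Litters as such differed in 0 of the 10 genes at an adjusted p under 0.05 (edgeR, 3 coefficients tested together), and no more did so without adjustment. The background was 0.0885% at an adjusted and 13.5% at an unadjusted p under 0.05. Jarid2 came nearest, with an unadjusted p of 0.0698 and an adjusted p of 0.403. The genotype by litter interaction gave 0 of the 10 (background 0%) at an adjusted p under 0.05 in edgeR. At an unadjusted p under 0.05 it gave 1, Jarid2 (p 0.0498, adjusted p 0.950), where 3.82% of all genes did so.

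Levels of the genes were compared per kilobase of exon, in CPM per kilobase, over controls. The order was Rbbp4 at 108 ± 4.93, Eed at 33.5 ± 2.61, Ezh2 at 22.3 ± 1.52, Mtf2 at 20.5 ± 1.13 and Jarid2 at 8.10 ± 1.44 (SD, n = 5). Suz12 followed at 7.13 ± 0.794, then Aebp2 at 3.03 ± 0.237, Ezh1 at 1.402 ± 0.182, Phf1 at 0.847 ± 0.152 and Phf19 at 0.126 ± 0.0366. Library ranges of Ezh2 and Mtf2 overlapped, as did those of Jarid2 and Suz12. Within every single library, control or mutant, Ezh2 was nevertheless above Mtf2. Jarid2 was above Suz12 in controls 1 to 4 and below it in control 5. In mutants the same neighbours overlapped, Jarid2 and Suz12 changed places, and Ezh1 and Phf1 overlapped as well. Core subunits therefore spanned a wide range: 4.34% of all genes tested had a higher control level per kilobase than Rbbp4, 12.3% than Eed, 16.8% than Ezh2, 33.7% than Suz12 and 64.2% than Ezh1. Of the accessory subunits, Mtf2 had 17.8% of genes above it, and Phf19 95.9%.

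**Figure D4:**
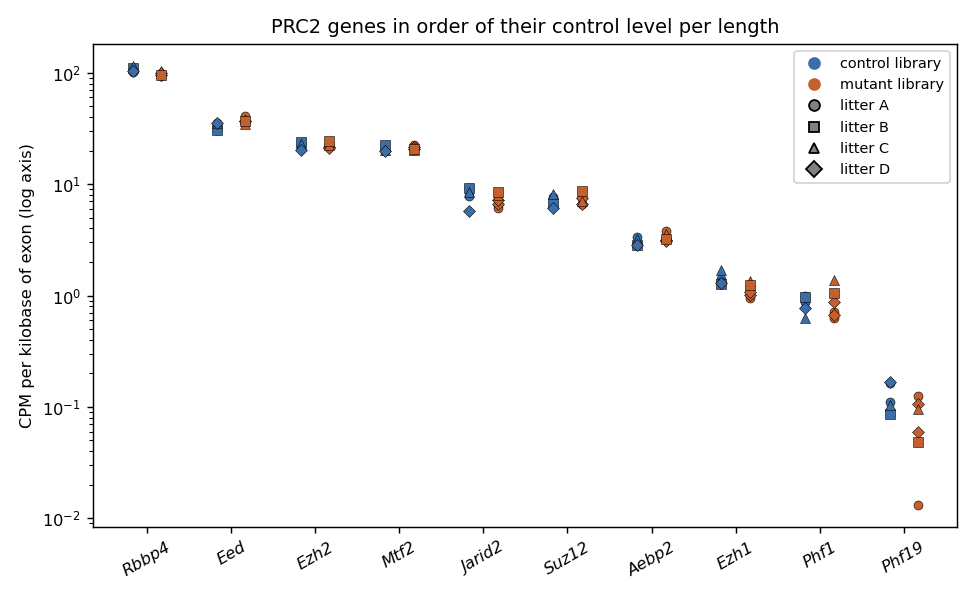
Level of the PRC2 genes in CPM per kilobase of exon (log axis) in each control and mutant library, in the order of the control means. Rbbp4 is highest at about 108 and Phf19 lowest at 0.126 in controls; Ezh2 with Mtf2 and Jarid2 with Suz12 overlap.

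A property of the libraries moved with some of these genes. In this series, genes whose transcripts hold long runs of T read lower in most mutants, and an index of that difference was made as the median deviation of 957 genes with runs of at least 18 T less that of 4233 genes with runs of at most 5 (log2 CPM). Controls 1 to 4 had an index of 0.13 to 0.27, and control 5 one of -0.15. Mutant 5 had 0.10, and the remaining 5 mutants ranged from -0.41 to -0.043. Control 5 was thus on the side of most mutants and mutant 5 nearest to the controls. Jarid2 was likewise lowest in control 5, and Ezh1 had its highest mutant level in mutant 5. Their own longest T runs in GENCODE M21 are 13 and 6 bases. Suz12 and Rbbp4 have the longest runs of the 10 genes, at 19 bases each. In a fit with the index beside litter, Jarid2 went from -0.14 to 0.16 (adjusted p 0.609) and Eed from 0.14 to -0.027 (adjusted p 0.933) in edgeR. Ezh1 was at -0.18 (adjusted p 0.733), Rbbp4 at -0.16 (adjusted p 0.361), Aebp2 at 0.17 (adjusted p 0.639) and Ezh2 at 0.077 (adjusted p 0.714). Phf19 went from -0.78 to -0.17 (adjusted p 0.960), Phf1 from 0.060 to 0.40 (adjusted p 0.757) and Suz12 from 0.057 to 0.17 (adjusted p 0.689), and Mtf2 was at 0.043 (adjusted p 0.887). In that fit 2 genes of the whole table passed, in place of 345. Within each litter, every mutant had a lower index than every control. Genotype and the index are thus hard to separate with litter in the fit. Estimates that shrank or calls that were lost there cannot tell them apart.

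**Figure D5:**
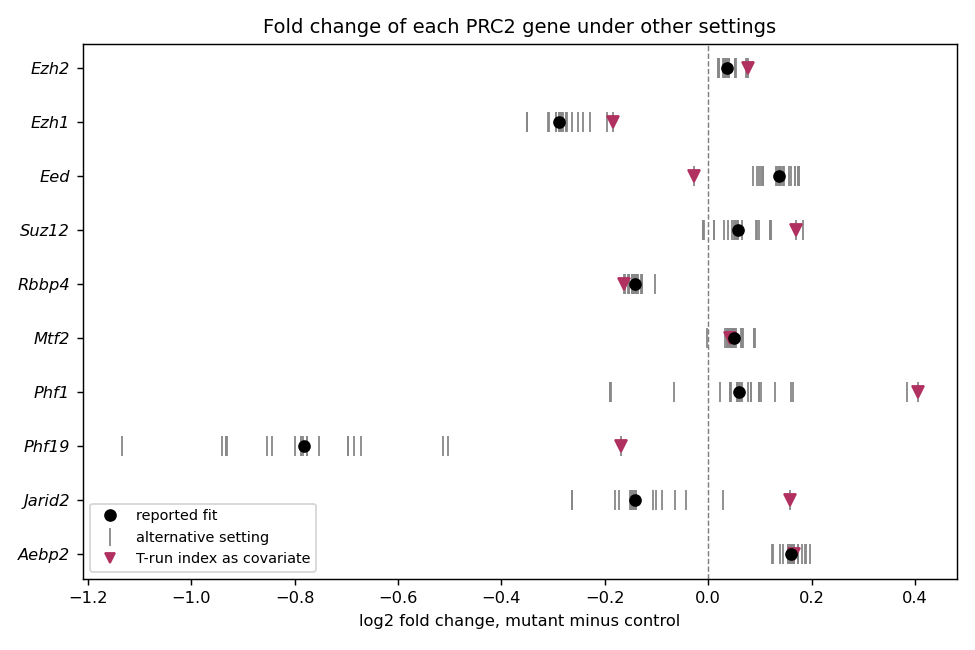
Log2 fold change (mutant minus control) of each PRC2 gene in the reported fit (black point), in 25 alternative settings (grey ticks; 22 for Phf19) and, among those, with the T-run index in the fit (red triangle). In that fit Jarid2 is at 0.16 and Eed at -0.027, while Ezh1, Rbbp4, Aebp2 and Ezh2 keep their side of 0 in all settings.

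Other proteins that bind PRC2 gave 0 calls among 4 genes tested of 5 (edgeR), and 0 of the 4 had an unadjusted p under 0.05. Over all genes tested these shares were 2.18% and 21.4%. The smallest p were those of Epop (listed as E130012A19Rik), an inhibitor of PRC2.1 output, at a log2 fold change of 0.25 (SE 0.12, adjusted p 0.276), and of Lcor, whose locus encodes the PALI1 cofactor, at -0.23 (SE 0.12, adjusted p 0.319). Epop averaged 17.4 ± 4.33 CPM (SD, n = 5) in controls and in mutants 20.8 ± 1.76 CPM (SD, n = 6). Ezhip, a natural inhibitor of the enzyme (listed as AU022751), had 0 reads in all libraries, which allows a level of up to 0.0165 CPM over the 11 libraries for counting error.

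Among 4 enzymes that act on H3K27 in the opposite sense, 0 rose and 1 fell, beside 0.702% and 1.48% of all genes tested. Kdm6b, an H3K27 demethylase, fell by 1.13 on the log2 scale (SE 0.21, adjusted p 0.0406 by edgeR). Controls averaged 197 ± 60.8 CPM (SD, n = 5) and mutants 85.5 ± 33.7 CPM (SD, n = 6). Its control range was 104.6 to 264 CPM and its mutant range 50.9 to 146 CPM, which overlap. The other demethylase, Kdm6a, was at -0.32 (adjusted p 0.193), the acetyltransferase Crebbp at -0.23 (adjusted p 0.127) and its relative Ep300 at 0.051 (adjusted p 0.870). Kdm6b holds a T run of 29 bases, and with the T-run index added to the fit it was at -0.32 (adjusted p 0.394 by edgeR). Kdm6b is itself among the genes with long T runs from which the index was made. That fit is therefore no independent check of its fall. The call was lost in 15 of 25 alternative settings.

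The Trithorax-group and H3K36 methyltransferases with their shared subunits, which counteract Polycomb silencing, gave 0 rises and 1 fall among 12 genes tested. Over all genes tested, 0.702% rose and 1.48% fell in edgeR. Kmt2d, an H3K4 methyltransferase of enhancers, fell by 0.73 on the log2 scale (SE 0.16, adjusted p 0.0464 by edgeR). Controls averaged 312 ± 74.4 CPM (SD, n = 5) and mutants 181 ± 48.2 CPM (SD, n = 6). Its longest T run is 26 bases, the estimate with the index as a covariate was -0.10 (adjusted p 0.591 by edgeR), and the call was lost in 15 of 25 settings. Kmt2d, too, is among the genes with long T runs from which the index was made. The median log2 fold change of the 12 genes was -0.02.

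Genes that PRC2 is known to silence were looked at last. Of 20 textbook targets that specify other tissues or arrest the cell cycle, 5 had enough reads to be tested, and 0 rose or fell at an adjusted p under 0.05 in edgeR, with 1 at an unadjusted p under 0.05. Beside them, 2.18% and 21.4% of all genes tested did so. Cdkn2a, the cell cycle inhibitor gene whose release is a classical sign of PRC2 loss, had 1 read over all 11 libraries, and its neighbour Cdkn2b had 19. Olig2, Nkx2-1 and Otx2 had 0 reads, which allows up to 0.0165 CPM each.

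Of the 39 Hox genes, classical targets of Polycomb silencing, 36 were tested and 0 passed in edgeR, with 7 at an unadjusted p under 0.05 and a median log2 fold change of 0.0023. The shares over all genes tested were 2.18% and 21.4%, as above. Hoxa11 at 0.53 (adjusted p 0.0546) and Hoxd4 at 0.73 (adjusted p 0.0944) came nearest, and each passed in some alternative settings (5 and 2 of 25). Of their exon bases, 35.0% for Hoxa11 and 52.3% for Hoxd4 also lie in other genes. The antisense Hoxa11os had 6551 reads in all against 4128 for Hoxa11, and Hoxd3os1 had 3778 against 517 for Hoxd4, so that reads of these genes are uncertain without strand. Cell cycle genes, which often move with Ezh2, gave 0 calls of 10 and 3 at an unadjusted p under 0.05 (2 higher and 1 lower), beside the same 21.4% of all genes. E2f1 averaged 17.2 ± 2.61 CPM (SD, n = 5) in controls and in mutants 23.9 ± 4.23 CPM (SD, n = 6). Its log2 fold change was 0.48 (SE 0.12, adjusted p 0.0546 by edgeR), and Ccna2 was at 0.27 (SE 0.07, adjusted p 0.0619). E2f1 and Ccna2 passed in 4 and 3 of 25 alternative settings. Plk1 was the gene that was lower, at -0.18 (SE 0.079, adjusted p 0.214 by edgeR). Of the exon bases of Ccna2, 12.5% also lie in Exosc9, which had 26091 reads against 15296 for Ccna2. The summed level of the 10 genes was 2558 to 2759 CPM in controls and 2608 to 2811 CPM in mutants.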

How the data were processed

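RNA was sequenced from 11 forelimb bud libraries after ribosomal RNA depletion, per the labels' protocols. The deposited table holds whole read counts, summed by gene name with featureCounts 1.4.6-p4 on mm10 with GENCODE M9 and a minimum mapping quality of 10, per the file headers; STAR 2.5.4b is named in the submitters' processing notes. The deposited table also gives each gene's exon length. The header sets no strand option, so overlapping genes are not separated by strand. It lists 12 alignment files, and 11 columns were analysed here.

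Counts were fitted with edgeR 4.0.16 (R 4.3.3): filterByExpr (15821 genes, 99.9% of counts), TMM scaling, litter as a block, a two-sided quasi-likelihood F test and Benjamini-Hochberg adjustment over all genes tested. Groups and litters came from the titles. Fold changes are mutant minus control, SE and 95% intervals come from the same test, and CPM use TMM-scaled totals; log2 CPM within litters had a prior count of 2. Litters and the interaction were tested over 3 coefficients together. Reads fix the precision of rare genes, and intervals for 0 reads cover counting error only. The fit was tested on simulated data with less spread than these libraries, no litter effect, and changes larger than any estimate for the PRC2 genes. That test does not show how well differences of the size seen in the PRC2 genes are found.

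Litter pairing comes from the titles and the design text. Deviations from group means correlated at -0.16 to 0.37 (median 0.13) over 8 same-litter pairs and -0.33 to 0.17 (median -0.02) over 22 others. The 25 within-group pairs of libraries differed by more than sampling noise (lowest chi-square per degree of freedom 7.38). The genes and lists were chosen with earlier results of these data known. The rule named the 10 PRC2 genes, Gmnn, up to 4 called genes of each other list (or the 2 with the smallest p), and the 3 genes most alike to each of 4 core genes. Some named results are not reported here. Kdm6a, Crebbp, Ep300, Rbbp7, Pax3, Myf5, Myod1, Myog, Plk1, Sync, Gm26722, Tmed5, Exosc9, Hoxa11os, Hoxd3os1, Cdkn2a, Cdkn2b, Ezhip, Olig2, Nkx2-1 and Otx2 were named after their values were seen. Alternatives were scaling by RLE or upper quartile, no low-count filter or 1 CPM in 5 libraries, DESeq2 1.42.0, limma-voom (limma 3.58.1), no litter block, T-run or Y-linked covariates, removal of abundant RNAs, and leaving out each library or litter.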

Additional observations from a re-analysis of the deposited data

Results flagged for a closer look

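Within each genotype, the highest and the lowest library of each PRC2 gene were compared with the spread of the others by Dixon's criterion, 40 comparisons in all. Mtf2 in control 3, at 128 CPM, was too far from the rest of the controls, of which the next was at 116 CPM. Chance gives about 1 such result over these comparisons, and its cause was not tested.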

How the results depend on the processing

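In all 25 alternatives 0 PRC2 genes passed between mutant and control. The count at an unadjusted p under 0.05, 2 as reported, was 1 without the filter on low counts, with the T-run index and with the Y-linked covariate, 0 to 2 without 1 library and 0 to 1 without 1 litter; it was 0 without control 4, mutant 5 or litter C. The median log2 fold change was -0.043 to 0.047 without 1 library or litter, and below 0 without control 4, mutant 5 or litter C (-0.041). Without the replicate block 16 genes of the whole table passed in place of 345, and the block changed no call of a PRC2 gene. The table gave 1566 genes without the filter, 550 with 1 CPM in 5 libraries, 1194 with DESeq2, 2 with the T-run index, 1 with the Y-linked covariate, 1 to 850 without 1 library (1 without control 4 or mutant 5, 850 without control 5) and 1 to 148 without 1 litter. Estimates that changed sign, none past the threshold either way, were Eed (-0.027) and Jarid2 (0.16) with the T-run index and Phf1 with the Y-linked covariate (-0.065). Leaving out 1 library or litter, Jarid2 ran from -0.26 to 0.029 (above 0 without litter A), Mtf2 from -0.0022 to 0.089 (below 0 without litter A), Suz12 from -0.0095 to 0.12 (below 0 without control 3, mutant 6 or litter B) and Phf1 from -0.19 to 0.38 (below 0 without control 4, mutant 5 or litter C). The cause was not tested. Ezh1, Ezh2, Rbbp4 and Aebp2 kept their direction in all 25 and Phf19 in the 22 that kept it after filtering. Phf19 was nearest to 0 with the T-run index (-0.17). Phf1 and Phf19 had the fewest reads and the widest intervals.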

Other observations

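The genes most alike to the core subunits over the 11 libraries were looked up among 10088 others with a mean of at least 5 CPM, by Pearson's r of log2 CPM, as a description without a test. For Ezh2 they were Auts2 (0.97), Sat1 (0.95) and Epha4 (0.95), and for Ezh1 they were Rnf141 (0.95), Ttc9c (0.94) and Kdsr (0.94). Eed was most like Tyw5 (0.97), Psmd10 (0.96) and Aprt (0.96), and Suz12 was most like Pip5k1a (0.88), Nrd1 (0.82) and Shroom4 (0.82). None of these 12 is another PRC2 gene, and the other 6 PRC2 genes were not looked up. All genes share the same 11 libraries, their scaling and their litters, so high values arise among so many genes.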
